A study of Mus musculus with 4 samples.

Results

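Genes of heart development were followed in mouse embryonic stem cells after withdrawal of LIF, the cytokine that keeps such cells undifferentiated. They are 5 transcription factors (Hand1, Hand2, Nkx2-5, Mef2c and Isl1) and 5 genes of the sarcomere (Tnnt2, Tnnc1, Myl4, Myl7 and Actc1), 10 of the 26994 gene symbols or IDs in the tables. They were picked by name, and every transcript row that maps to one of these symbols was used. The cells were of the CJ9 line (embryonic stem cells of strain 129S4/SvJae), genotype WT, and by their titles carried Cas9 only. Libraries were collected at day 4 (2 libraries) and day 6 (2 libraries) of LIF withdrawal, and the study asks how the Evx1as/Evx1 locus acts in this differentiation; KO cells were not analysed here. The titles, the time entries and the harvest text give these days, whereas the culture text disagrees for 3 libraries: it states 2 days (day 4 replicate 1), 4 days (day 6 replicate 1) and 6 days (day 4 replicate 2). No label says that the 2 libraries of a day were separate cultures, and p-values therefore reflect spread among these libraries alone, which may be technical.

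Hand1 and Hand2 are basic helix-loop-helix factors of the heart chambers, and both also act in extraembryonic mesoderm; Hand1 acts in trophoblast giant cells as well. Nkx2-5, Mef2c and Isl1 belong to the core network of heart progenitors, in which Gata and Tbx factors are their partners. In the sarcomere, the repeating unit of striated muscle, myosin pulls on actin filaments, and the troponin complex on the thin filament makes this pull depend on calcium. Tnnt2 (troponin T) ties that complex to tropomyosin, Tnnc1 (troponin C) binds the calcium, Myl4 and Myl7 are atrial myosin light chains, and Actc1 is cardiac alpha-actin.

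The promoters of 3 of these genes are shown because Hand2 had the largest log2 difference of the 10 members and Actc1 and Myl7 are the members whose promoters hold a CArG box. The sequences are from RefSeq, build GRCm38.p6 (which mm10 stands for), 250 bases before to 50 bases after the transcription start, 5′ to 3′ on the strand of the gene. They lie at chr8:57320733-57321032, plus strand, at chr2:114052826-114053125, minus strand and at chr11:5898733-5899032, minus strand. Capitals mark AGATAA and TGATAA, the letters of GATA factor sites, and CArG boxes, the site of serum response factor (Srf), each searched on both strands.
Hand2 promoter: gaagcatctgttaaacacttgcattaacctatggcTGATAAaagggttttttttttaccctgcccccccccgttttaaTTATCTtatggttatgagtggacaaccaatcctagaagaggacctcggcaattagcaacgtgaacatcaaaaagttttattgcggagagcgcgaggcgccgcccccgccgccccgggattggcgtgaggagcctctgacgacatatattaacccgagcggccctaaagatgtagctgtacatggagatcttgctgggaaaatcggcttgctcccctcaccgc
Actc1 promoter: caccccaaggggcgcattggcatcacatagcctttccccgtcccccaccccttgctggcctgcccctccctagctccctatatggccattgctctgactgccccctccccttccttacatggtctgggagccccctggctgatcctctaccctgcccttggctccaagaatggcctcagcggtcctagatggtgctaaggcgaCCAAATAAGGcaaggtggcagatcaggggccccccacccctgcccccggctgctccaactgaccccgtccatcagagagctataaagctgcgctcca
Myl7 promoter: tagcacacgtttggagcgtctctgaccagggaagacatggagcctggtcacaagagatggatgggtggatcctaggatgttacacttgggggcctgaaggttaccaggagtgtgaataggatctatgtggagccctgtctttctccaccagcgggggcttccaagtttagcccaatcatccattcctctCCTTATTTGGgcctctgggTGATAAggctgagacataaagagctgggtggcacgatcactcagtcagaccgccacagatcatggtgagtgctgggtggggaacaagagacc

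A CArG box was found in the promoters of Actc1 and Myl7 and in no other member matched. It begins 47 bases before the start of the promoter entry in Actc1 and 61 bases before it in Myl7. The authors' Actc1 row (NM_009608) starts further downstream, at 114052811, outside the bases printed. The distance of 47 bases therefore does not hold for that row. Promoter sequences were matched for 9 of the 10 members, with 12 promoters in all, and Hand1 was the 1 without an entry. Of all 32851 promoters of the same length, 1.63% hold a CArG box. AGATAA or TGATAA was present in 4 members (Hand2, with 1 of each, Isl1, Tnnt2 and Myl7), against 18.6% of all promoters. Members are counted here by gene, with Mef2c and Tnnt2 having more than 1 promoter, whereas the shares are counted by promoter. The MEF2 site (3.19% of all promoters) and TNAAGTG, letters of the NKX2 site (11.5%), were in 0 member promoters. The E-box letters CANNTG, which hold the sites of Hand factors among many others, were in 8 members and in 72.3% of all promoters. These are matches of letters only. Srf itself was measured at 65.8 and 164 FPKM on day 4 against 30.1 and 22.5 FPKM on day 6. Each day 6 library was thus lower than either day 4 library, and a link to the genes with a CArG box was not tested.

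Values are FPKM (fragment numbers divided by transcript length and by library size), so that levels of genes of different length can be set side by side. The tables hold no counts, and depth was estimated from the widths of the deposited intervals at 3730000 and 3620000 mapped fragments for the day 4 libraries and 6510000 and 5770000 for the day 6 libraries. Differences were tested with limma on log2(FPKM + 1) over the 11716 genes averaging 1 FPKM or more, a scale that understates the change of low genes. None was called at an adjusted p under 0.05 (0 of 11716, or 0%), and 1793 had an unadjusted p under 0.05. So no gene below passed this test with all 4 libraries, and an exact two-sided permutation test of 2 libraries against 2 cannot give a p below 0.333. The median log2 difference of all genes tested, day 6 minus day 4, was 0.51, and 41.6% of them were higher and 11.5% lower in each day 6 library than in either day 4 library. After each library was centred on its median these shares were 20.3 and 26.4%, and after a correction for GC content 27.5 and 27.6%. The 2 day 4 libraries also differ from each other with GC content, which is given below where it touches a member. The label of embryonic stem cells was checked on 8 pluripotency genes, of which 4 (Pou5f1, Nanog, Sox2 and Utf1) were lower and 4 (Zfp42, Klf4, Dppa3 and Esrrb) higher without overlap at day 6. Pou5f1 measured 368 and 376.5 FPKM on day 4 against 54.9 and 42.0 FPKM on day 6, and Zfp42 20.6 and 6.15 FPKM and then 21.4 and 24.9 FPKM.

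Of the 10 members, 6 were higher in each day 6 library than in either day 4 library (Hand1, Hand2, Mef2c, Isl1, Tnnc1 and Myl4), 2 were lower (Myl7 and Actc1) and 2 overlapped (Nkx2-5 and Tnnt2). Of the 18550 genes above 0 FPKM in at least 1 library, 38% were higher and 9.45% lower in this sense (41.6 and 11.5% of the genes tested). The median log2 difference was 0.37 over the 10 members and 0.23 over those 18550 genes. With libraries centred on their medians, or corrected for GC content, 3 members were higher without overlap, Hand1, Hand2 and Myl4. After centring 3 were lower (Mef2c, Myl7 and Actc1), beside 20.3% higher and 26.4% lower of all genes tested. After the GC correction 2 were lower (Myl7 and Actc1), beside 27.5% higher and 27.6% lower. Among the 10, 7 averaged 1 FPKM or more and entered the test; Mef2c, Isl1 and Myl7 did not. Myl4 entered through its day 6 values.

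**Figure D1:**
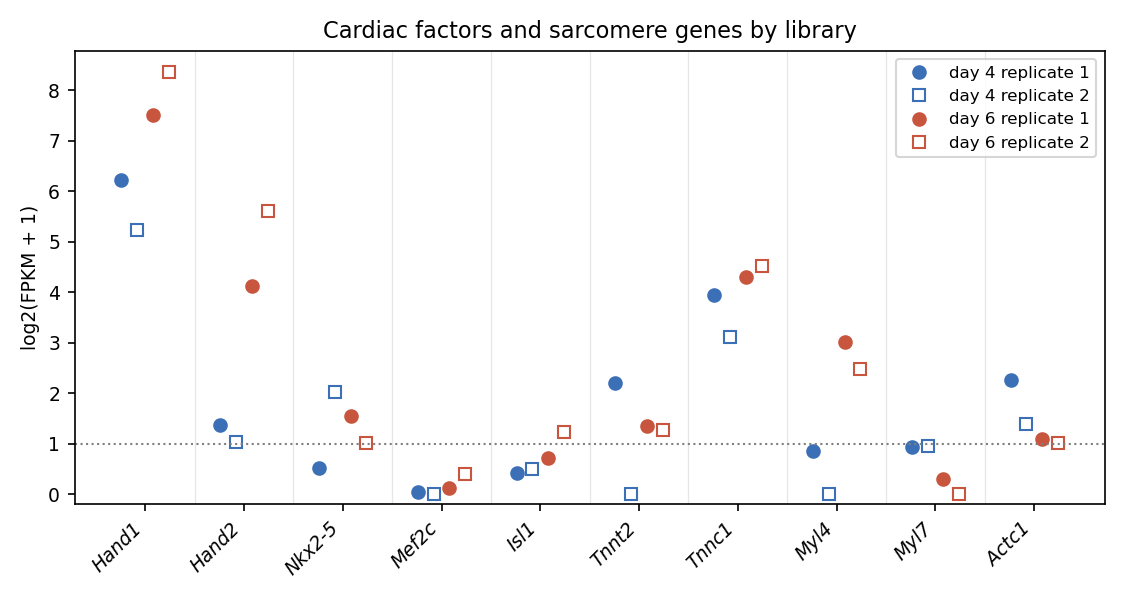
Level of the 10 members in each library on the log2(FPKM + 1) scale, day 4 in blue and day 6 in red, filled circles for replicate 1 and open squares for replicate 2; the dotted line is 1 FPKM. Hand1 is the highest member in every library, from 36.6 to 329 FPKM, and Mef2c stays below 0.32 FPKM.

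Among the 5 factors, Hand1 and Hand2 had the highest levels at day 6, although Tnnc1 (18.8 FPKM) exceeded Hand2 (16.3 FPKM) in day 6 replicate 1. Hand1 (NM_008213, mm10 chromosome 11, 57828713 to 57832147, minus strand) was given as 73.8 and 36.6 FPKM in day 4 replicates 1 and 2 and as 181 and 329 FPKM in day 6 replicates 1 and 2. It was thus well expressed at both times, with the days apart and the day 6 libraries also far from each other. Its rank among the 11716 genes tested went from 926 and 1756 at day 4 to 389 and 195 at day 6. The means were 55.2 ± 26.3 and 255 ± 105 FPKM (SD, n = 2), a ratio of 4.62. On the log2 scale the difference was 2.21 with a standard error of 0.63 (limma, adjusted p = 0.288). With a day 4 library left out it was 2.71 (without replicate 1) or 1.71 (without replicate 2). Such fits take the lone day 4 library to have the spread of the day 6 pair. Only differences are therefore given from them for the members.

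Hand2 had the largest difference. Its transcript (NM_010402, mm10 chromosome 8, 57320983 to 57324517, plus strand) measured 1.60 and 1.05 FPKM on day 4 against 16.3 and 47.9 FPKM on day 6. The day 4 values rest on an estimated 13 and 8.5 fragments and the day 6 values on 237 and 618. The groups were apart by more than the deposited intervals, of which the highest at day 4 ended at 2.28 FPKM and the lowest at day 6 began at 13.8 FPKM. The ratio of the means was 24.3, and the log2 difference 3.66 with a standard error of 0.66 (limma, adjusted p = 0.267). The difference was 3.83 without day 4 replicate 1 and 3.49 without day 4 replicate 2. Centring gave 3.03 and the GC correction 3.45, and neither made it pass (limma, adjusted p = 0.375 and 0.18).

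Hand1 exceeded Hand2 in every library, but by less at day 6. The ratio of Hand1 to Hand2 FPKM was 46.1 and 34.9 at day 4 and 11.1 and 6.87 at day 6. In both genes day 6 replicate 2 was the higher library of its day and day 4 replicate 2 the lower. In bulk RNA, fewer cells that express a gene and less RNA per cell cannot be told apart, which holds for every level given here.

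The other 3 factors stayed near or below 1 FPKM in most libraries. Nkx2-5 (NM_008700, mm10 chromosome 17, 26838665 to 26841565, minus strand), the homeobox factor of early heart cells, was given as 0.429 and 3.05 FPKM on day 4 against 1.91 and 1.01 FPKM on day 6. The day 4 libraries thus held both the lowest and the highest value, and the days overlapped. The log2 difference was 0.01 with a standard error of 0.64 (limma, adjusted p = 0.997), and its direction flipped with the scaling, at -0.62 after centring and 0.22 after the GC correction. The transcript has 67.1% GC, and Nkx2-5 in day 4 replicate 2 exceeded replicate 1 by 1.5 log2 units. The 65 genes tested within 2 points of that GC content were a median of 2.06 higher there. The part of GC content in the gap between the day 4 values was not tested.

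Isl1 and Mef2c were low throughout. Isl1 (NM_021459, mm10 chromosome 13, 116298270 to 116309688, minus strand), a LIM homeobox factor of the second heart field and also of motor neurons, measured 0.330 and 0.418 FPKM on day 4 against 0.637 and 1.36 FPKM on day 6. Its days did not overlap but the deposited intervals did, and the values rest on an estimated 3.1, 3.8, 10 and 20 fragments. Mef2c, a MADS-box factor of muscle, endothelium and neurons, has 2 rows (mm10 chromosome 13, 83504034 to 83667079, plus strand). Their sum was 0.0317 FPKM and a listed 0 at day 4 and 0.0806 and 0.312 FPKM on day 6, or at most an estimated 12 fragments. Its low level contrasts with Mef2d, another gene of its family, at 49.4 and 74.4 FPKM on day 4 against 59.7 and 53.3 FPKM on day 6. After centring or the GC correction the differences of Isl1 and Mef2c were negative, -0.11 and -0.40 after centring and -0.16 and -0.40 after the GC correction, so that no direction is given for either.

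The 5 sarcomere genes showed no common direction. Tnnc1, the calcium sensor of heart and slow skeletal muscle, was the highest of the 5 in every library. Its row (NM_009393, mm10 chromosome 14, 31208312 to 31211711, plus strand) was given as 14.3 and 7.70 FPKM on day 4 against 18.8 and 22.0 FPKM on day 6. Both day 6 values were the higher ones, yet the deposited intervals of the days overlapped. The log2 difference was 0.89 with a standard error of 0.50 (limma, adjusted p = 0.449), and it was 0.26 after centring and 0.31 after the GC correction, with the days then overlapping. It was 1.29 without day 4 replicate 1 and 0.48 without day 4 replicate 2. The gene begins 1.5 kb from Nisch, on the opposite strand, at 79.3 and 357 FPKM on day 4 against 246 and 282 FPKM on day 6.

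Tnnt2, the tropomyosin-binding troponin, was far below Tnnc1 at day 6 (ratios of Tnnc1 to Tnnt2 of 12.1 and 15.6). It has 9 rows (mm10 chromosome 1, 135836334 to 135852268, plus strand, for 8 of them), and their sum was 3.59 FPKM and a listed 0 at day 4 and 1.56 and 1.41 FPKM on day 6. The day 4 libraries enclosed the day 6 libraries, so the days overlapped. The log2 difference was 0.21 with a standard error of 0.82 (limma, adjusted p = 0.911). It changed sign with the day 4 library left out, at 1.31 without replicate 1 and -0.89 without replicate 2. It was -0.42 after centring and -0.29 after the GC correction. Nearly all of the signal was placed on 1 transcript per library, NM_011619 in day 4 replicate 1 (3.59 FPKM) and day 6 replicate 1 (1.56 FPKM) and NM_001130177 in day 6 replicate 2 (1.41 FPKM). With an estimated 9.9 to 16 fragments per library, the choice between such similar transcripts cannot be read as a switch.

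Myl4, the atrial essential light chain that embryonic heart and skeletal muscle also use, was the sarcomere member with the largest difference. Its row (NM_010858, mm10 chromosome 11, 104550663 to 104587219, plus strand) was given as 0.807 FPKM and a listed 0 at day 4 and as 7.07 and 4.60 FPKM on day 6. The day 6 libraries, with an estimated 41 and 23 fragments, lay above the day 4 libraries by more than the deposited intervals, as did those of Hand1 and Hand2. The log2 difference was 2.32 with a standard error of 0.50 (limma, adjusted p = 0.267). It was 1.69 after centring and 1.83 after the GC correction. Without day 4 replicate 1 it was 2.75, and without day 4 replicate 2 it was 1.90. The Myl4 row begins 42 bases from the start of Cdc27, a cell cycle gene on the opposite strand, which was given as 9.86 and 0.25 FPKM on day 4 against 4.95 and 4.19 FPKM on day 6. Within the Myl4 row, also on the opposite strand, lies Gm11665, listed at 0 on day 4 and at 0.777 and 0.901 FPKM on day 6. No source used here states whether strand was used in the authors' counting.

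Myl7 and Actc1, the genes with a CArG box in the promoters printed above, had lower values in both day 6 libraries, which for Myl7 rest on very few fragments. Myl7 (NM_022879, mm10 chromosome 11, 5896637 to 5898782, minus strand), the atrial regulatory light chain, measured 0.902 and 0.928 FPKM on day 4, 0.232 FPKM in day 6 replicate 1 and a listed 0 in day 6 replicate 2. These values stand for an estimated 2.0, 2.0, 0.9 and 0 fragments, so a difference was not detectable at this depth. Actc1 (NM_009608, mm10 chromosome 2, 114047289 to 114052811, minus strand) was given as 3.80 and 1.61 FPKM on day 4 against 1.14 and 1.03 FPKM on day 6. Both day 6 libraries were lower, although the deposited intervals overlapped. The log2 difference was -0.77 with a standard error of 0.47 (limma, adjusted p = 0.472). It was -1.39 after centring and -1.43 after the GC correction. Without day 4 replicate 1 it was -0.33, and without day 4 replicate 2 it was -1.20.

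**Figure D2:**
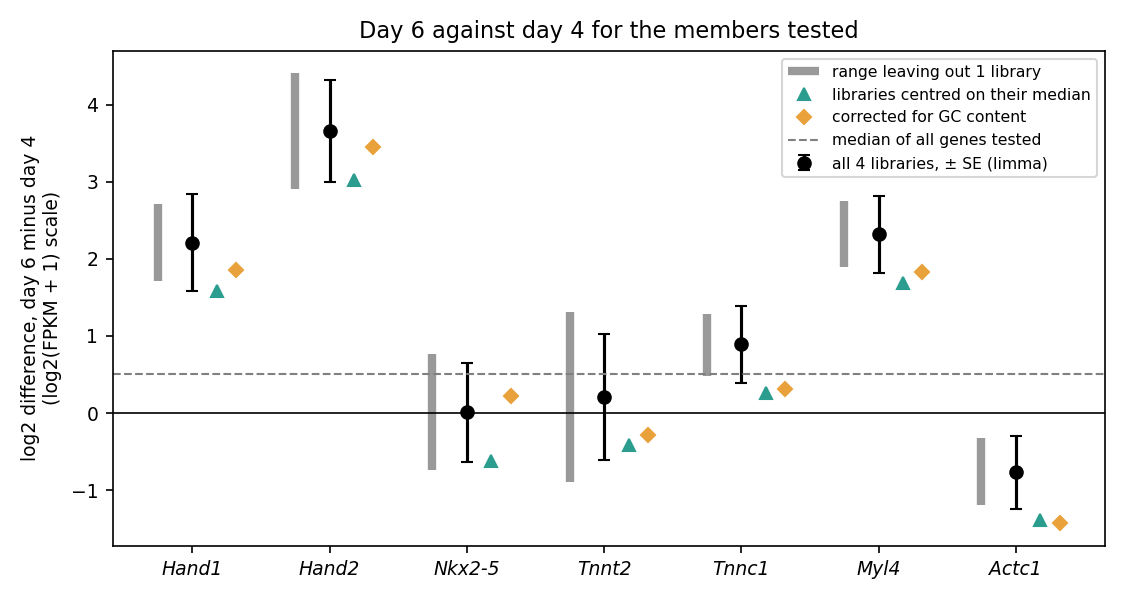
Log2 difference of day 6 minus day 4 for the 7 members tested, with its standard error from limma (black), the value with libraries centred on their median (green triangles) or corrected for GC content (orange diamonds), and the range over leaving out 1 library (grey bars). Hand1, Hand2 and Myl4 lie above the median of all genes tested (dashed, 0.51) under every setting drawn, and the bars of Nkx2-5 and Tnnt2 cross 0.

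At day 4 the members differed between the replicates as well. Of the 10, 7 were lower in day 4 replicate 2 than in replicate 1, among them Hand1 and Tnnt2. As replicate 2 minus replicate 1, Hand1 was at -0.99 log2 units and Tnnt2 at -2.20. The median over all genes tested was -0.26. Genes tested of like GC content had medians of 0.75 and 0.37 for the same 2 comparisons, so these members went against the general GC trend between the day 4 libraries. Actc1 (-0.88), Myl4 (-0.85) and Tnnc1 (-0.81) did so too, or beyond it, with medians at their GC content of -0.13, 0.39 and 0.11. In day 4 replicates 1 and 2, Hand1 had an estimated 522 and 251 fragments and Tnnc1 38 and 20. The gaps of Actc1 (20 and 8.1), Tnnt2 (16 and 0) and Myl4 (2.7 and 0) rest on few fragments.

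The other genes of the contractile apparatus gave no common pattern. Of the 28 other sarcomere genes in the list, 5 were higher and 4 lower without overlap, beside 38 and 9.45% of all genes above 0 FPKM. In the test, which 9 of them entered, 0 were called and the median log2 difference was -0.04. A gene near 0 at day 4 enters the test only through its day 6 values, so in this and the lists below the counts without overlap are over the whole list. In 12 of the 28, no library reached 1 FPKM. Tnni1, the slow skeletal and fetal cardiac troponin I, was listed at 0 in each day 4 library, against 6.50 and 14.1 FPKM on day 6 (limma, adjusted p = 0.267). Tnni3, the adult cardiac troponin I, went from a listed 0 and 0.599 FPKM to 2.87 and 5.36 FPKM (limma, adjusted p = 0.267). Both inhibitory troponins were thus higher at day 6, while Tnnt2, their partner in the complex, overlapped. Tpm1, a tropomyosin that many cell types make, was by far the most abundant, at 1756 and 1485 FPKM on day 4 against 930 and 613 FPKM on day 6. Tmod1, which caps thin filaments, measured 2.67 and 0.803 FPKM and then 3.60 and 3.65 FPKM.

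The thick filament and Z disc genes that mark working heart muscle were at trace levels. Myh6, the fast cardiac myosin heavy chain, was given as 2.04 and 1.32 FPKM on day 4 against 0.155 and 0.157 FPKM on day 6. Myh7, the slow heavy chain, stood at 1.09 and 0.369 FPKM and then 0.427 and 0.293 FPKM. Actn2, the alpha-actinin of the Z disc, measured 1.80 and 1.19 FPKM and then 0.392 and 0.244 FPKM. Both Myh6 and Actn2 were lower in each day 6 library, whereas Mybpc3, a myosin-binding protein, and Myom2, an M band protein, were higher there. Mybpc3 measured 0.0490 FPKM and a listed 0 and then 1.06 and 0.374 FPKM, and Myom2 0.367 FPKM and a listed 0 and then 2.54 and 0.743 FPKM. Ttn, which encodes titin, reached at most 0.165 FPKM, the ventricular light chain Myl2 was listed at 0 in 3 libraries and at 0.423 FPKM in day 6 replicate 1, and its partner Myl3 did not exceed 1.35 FPKM. None of these was tested, their means being below 1 FPKM.

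**Figure D3:**
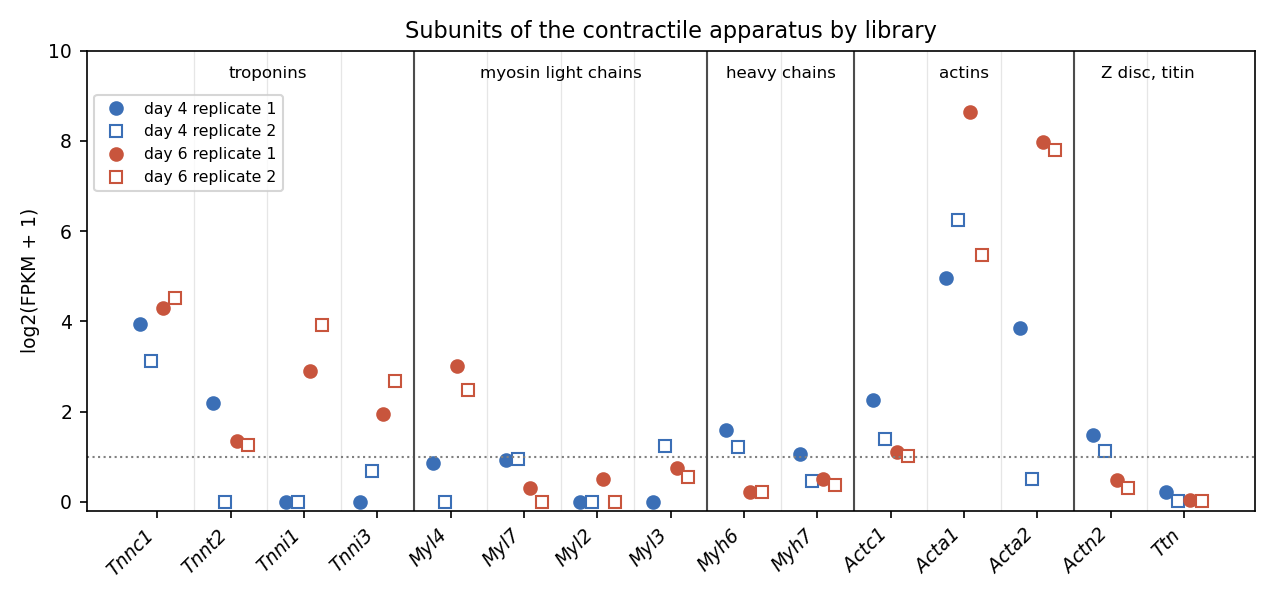
Level of contractile genes by library on the log2(FPKM + 1) scale, grouped as troponins, myosin light chains, myosin heavy chains, actins, and Actn2 (Z disc) with Ttn (titin); symbols and colours mark libraries and days, and the dotted line is 1 FPKM. The troponins, Myl4 and the actins are above 1 FPKM in both day 6 libraries, while Myh6, Myh7, Actn2 and Ttn are below it there.

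Calcium handling and conduction genes were also mostly near 0, with 12 of 17 below 1 FPKM in every library. Of the 17, 7 were higher and 1 lower without overlap, beside 38 and 9.45% of all genes above 0 FPKM. The 3 that were tested overlapped. Atp2a2, the calcium pump of the sarcoplasmic reticulum that other cells use as well, was given as 75.7 and 38.4 FPKM on day 4 against 51.9 and 49.9 FPKM on day 6. Gja1, the widely expressed connexin 43, measured 133 and 7.66 FPKM and then 49.1 and 48.7 FPKM, and Kcnh2, a potassium channel, 0.385 and 3.36 FPKM and then 1.24 and 1.70 FPKM. Ryr2, the cardiac calcium release channel, did not exceed 0.283 FPKM, and Nppa, the atrial natriuretic peptide, stayed below 0.3 FPKM.

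Other heart factors had values in both directions. Of 28, 15 were higher and 2 lower without overlap, beside 38 and 9.45% of all genes above 0 FPKM. Among the 18 tested, 0 were called, and their median log2 difference was 0.79, where all genes tested had 0.51. Tbx20, a T-box factor of the heart and lateral mesoderm, was given as 0.561 and 2.03 FPKM on day 4 against 9.20 and 16.2 FPKM on day 6. Smarcd3, the heart-enriched subunit of the BAF chromatin remodelling complex, measured 0.997 and 2.40 FPKM and then 9.24 and 15.6 FPKM, and Tbx2, a T-box repressor, 0.115 and 0.756 FPKM and then 4.17 and 13.0 FPKM. In each of the 3 genes, and in the Gata factors below, day 6 replicate 2 was the highest library, as for Hand1 and Hand2.

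Gata4 and Gata6, zinc finger factors of heart and endoderm, were at like or higher levels. Gata4 was given as 6.77 and 10.03 FPKM on day 4 against 16.6 and 27.7 FPKM on day 6, and Gata6 as 2.13 and 3.65 FPKM and then 10.1 and 16.4 FPKM. Tbx5, the T-box factor of the first heart field, was not above 0.821 FPKM in any library. Thus the factors with the higher levels at day 6 were Hand1, Hand2, the Gata genes, Tbx20 and Tbx2, while Nkx2-5, Isl1, Mef2c and Tbx5 stayed below 2 FPKM there. The limma adjusted p was 0.267 for Tbx20, Smarcd3 and Tbx2 and 0.280 for Gata6.

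**Figure D4:**
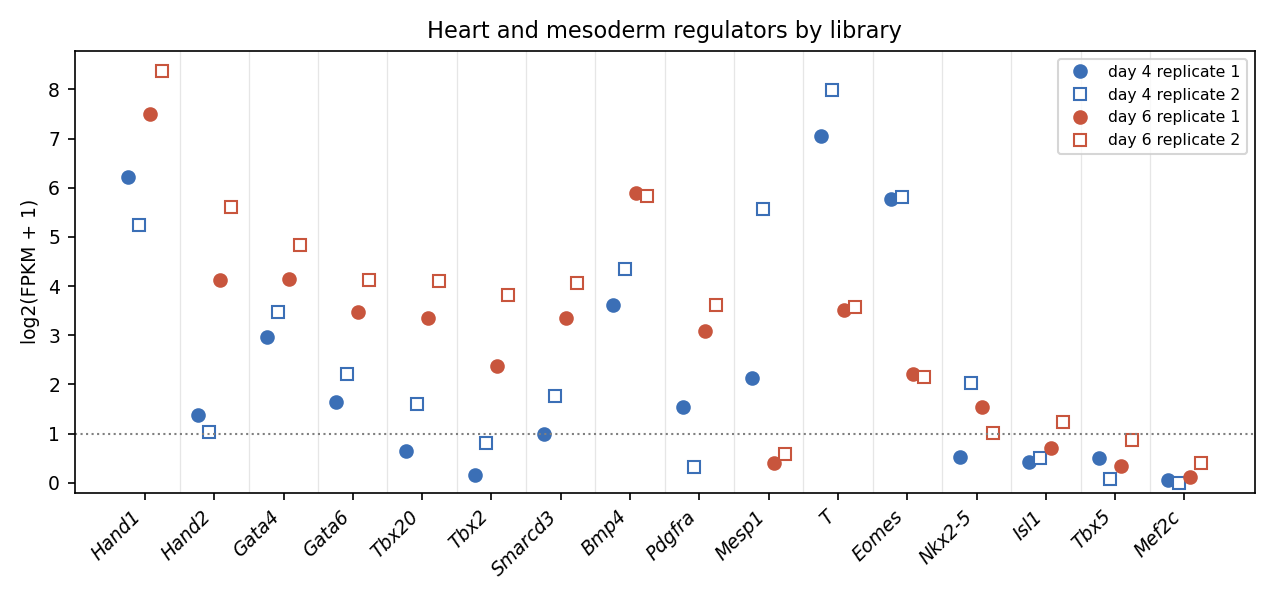
Level of heart and mesoderm regulators by library on the log2(FPKM + 1) scale, with symbols and colours for libraries and days and a dotted line at 1 FPKM. Hand1, Hand2, Gata4, Gata6, Tbx20, Tbx2, Smarcd3, Bmp4 and Pdgfra are higher in both day 6 libraries, T, Eomes and Mesp1 are lower, and Nkx2-5 overlaps.

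Genes of the mesoderm from which heart progenitors arise were split. Of 18 such genes, 7 were higher and 6 lower without overlap, beside 38 and 9.45% of all genes above 0 FPKM. Among the 15 tested, 0 were called and the median log2 difference was 0.20. Mesp1, the factor that marks the first cardiac mesoderm, was given as 3.40 and 46.3 FPKM on day 4 against 0.328 and 0.501 FPKM on day 6. T (Brachyury), of the primitive streak, measured 131 and 252 FPKM and then 10.4 and 10.97 FPKM, Eomes 53.4 and 55.0 FPKM and then 3.65 and 3.43 FPKM, and Six2, a homeobox factor, 48.2 and 37.1 FPKM and then 7.89 and 4.60 FPKM. On the other side Pdgfra, a growth factor receptor of mesoderm, measured 1.89 and 0.247 FPKM and then 7.54 and 11.3 FPKM, and Kdr, the VEGF receptor of early mesoderm and endothelium, 2.70 and 0.934 FPKM and then 4.60 and 7.41 FPKM. The limma adjusted p was 0.267 for T, Eomes, Six2 and Pdgfra.

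Several members are also expressed in other tissues, whose marker lists are given here; no gene of these lists was called (limma, 0 of those tested), and their part in the results for the members was not tested. Of 12 trophoblast genes, 7 were higher and 0 lower without overlap, beside 38 and 9.45% of all genes above 0 FPKM. The summed trophoblast level went from 44.1 and 110 FPKM on day 4 to 252 and 267 FPKM on day 6, with Krt7 its largest part in every library. Plac1, a placental gene, was listed at 0 at day 4, against 30.2 and 45.7 FPKM on day 6, Tfap2c measured 8.41 and 6.18 FPKM and then 20.7 and 29.0 FPKM, Krt7 25.7 and 58.1 FPKM and then 146 and 129 FPKM, and Ascl2 1.61 and 12.4 FPKM and then 24.4 and 30.5 FPKM. The giant cell and spongiotrophoblast genes Prl3d1, Prl2c2, Tpbpa and Ctsq were listed at 0 in every library.

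The endothelial list, relevant to Mef2c, had 8 of 12 genes higher and 0 lower without overlap, beside the 38 and 9.45% of all genes above 0 FPKM. Its summed level was 6.67 and 9.18 FPKM on day 4 against 18.8 and 49.1 FPKM on day 6. Sox17 measured 0.562 and 0.0632 FPKM and then 4.47 and 3.84 FPKM, the endothelial cadherin Cdh5 0.613 FPKM and a listed 0 and then 2.87 and 9.64 FPKM, Pecam1 0.886 FPKM and a listed 0 and then 1.91 and 4.60 FPKM, and Lmo2 1.00 FPKM and a listed 0 and then 2.18 and 2.87 FPKM. Of the 12 neuron and neural crest genes, relevant to Isl1 and Hand2, 0 were higher and 1 was lower without overlap. Their sum was 12.1 and 12.8 FPKM on day 4 against 19.9 and 8.94 FPKM on day 6, and the motor neuron factor Lhx3 was listed at 0 in every library. Tubb3 was given as 6.74 and 7.10 FPKM and then 16.7 and 6.91 FPKM, Map2 as 1.86 and 0.788 FPKM and then 1.01 and 0.524 FPKM, and Sox10 as 0.842 and 3.18 FPKM and then 0.118 FPKM and a listed 0.

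Skeletal and smooth muscle lists bear on the sarcomere genes. Of 16 skeletal muscle genes 5 were higher and 2 lower without overlap, beside 38 and 9.45% of all genes above 0 FPKM. Myf5, Myf6, Myog and Myh1 were listed at 0 in every library, while Myod1 reached at most 0.0593 FPKM. The summed skeletal level was 37.7 and 80.1 FPKM on day 4 against 412 and 55.9 FPKM on day 6, most of it from Acta1. Tnni2, the fast troponin I, measured 0.383 FPKM and a listed 0 at day 4 and 3.75 and 2.94 FPKM on day 6, Mylpf, the fast regulatory light chain, 0.980 and 1.34 FPKM and then 3.87 and 3.09 FPKM, and Tnnt3, the fast troponin T, 5.36 and 3.09 FPKM and then 6.65 and 5.62 FPKM. So troponin genes of fast and slow skeletal type were measured beside the cardiac ones, while the myogenic regulators named above were at or near 0.

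The smooth and skeletal muscle actin genes were far above Actc1 at day 6. Acta2, the smooth muscle actin gene, stood at 13.4 and 0.410 FPKM on day 4 against 250 and 222 FPKM on day 6, and Acta1, skeletal actin, as 30.3 and 74.4 FPKM and then 396 and 43.4 FPKM. The ratio of Acta2 to Actc1 was 3.53 and 0.255 at day 4 and 218 and 216 at day 6. These genes have nearly identical coding sequences, so how reads were shared among them is uncertain, and Acta1 differed widely between the day 6 libraries. Of the 10 smooth muscle genes 2 were higher and 5 lower without overlap, beside 38 and 9.45% of all genes above 0 FPKM. Tagln measured 353 and 901 FPKM and then 365 and 78.3 FPKM, Cnn1 31.9 and 98.8 FPKM and then 11.3 and 1.89 FPKM, Smtn 50.1 and 138.5 FPKM and then 20.4 and 19.5 FPKM, and Myl9 33.3 and 76.5 FPKM and then 18.9 and 13.7 FPKM. The summed smooth muscle level was 498 and 1220 FPKM on day 4 against 674 and 339 FPKM on day 6.

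Most neighbouring genes that were tested overlapped between the days. Within 100 kb, 9 members had at least 1 neighbouring or overlapping gene with a row, 18 in all; Isl1 had none. Of these, 7 were tested, 1 was higher without overlap and 6 overlapped, beside 41.6% higher and 11.5% lower of all genes tested. The one tested and higher was Itgb3, an integrin gene 20.8 kb from Myl4, at 0.835 and 0.106 FPKM on day 4 against 2.29 and 3.38 FPKM on day 6. Hand2os1, the noncoding transcript that runs away from Hand2 on the opposite strand and begins 123 bases from it in the authors' rows, was listed at 0 at day 4, against 0.508 and 0.875 FPKM on day 6, and 5033428I22Rik, on the other side of Hand2, went from a listed 0 in both day 4 libraries to 0.267 and 0.306 FPKM. Sap30l, 18.1 kb from Hand1, was given as 6.60 and 23.8 FPKM and then 18.8 and 23.3 FPKM, Bnip1, 46.1 kb from Nkx2-5, as 4.21 and 11.8 FPKM and then 9.87 and 8.94 FPKM, and Lad1, 3.0 kb from Tnnt2, as 59.8 and 47.1 FPKM and then 53.9 and 31.8 FPKM.

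The genes tested whose 4 values ran most like those of a member were found by the distance between log2(FPKM + 1) profiles after each gene's mean was taken off, which is a description over 4 libraries. For Hand1 they were Cdh11, a cadherin of mesenchyme (distance 0.25), Apoc1 (0.32) and Fgfbp1 (0.34). Cdh11 was given as 4.48 and 2.29 FPKM on day 4 against 15.1 and 29.4 FPKM on day 6. For Hand2 they were Efna1, an ephrin ligand (0.26), Col1a1, a fibrillar collagen chain (0.33), and the troponin gene Tnni1 (0.48). For Myl4 they were Pafah2 (0.10), Gnpda1 (0.13) and Sbsn (0.14), for Tnnc1 Ogfod1 (0.04), Rrnad1 (0.07) and Ctps2 (0.07), and for Actc1 Rbm8a (0.02), Aatf (0.10) and Hspa4 (0.11). For Nkx2-5 they were Med22 (0.06), Mrps34 (0.08) and Rhpn1 (0.09), and for Tnnt2 Gm17080 (0.01), Hacd2 (0.08) and Tgfbr1 (0.08). None of the nearest genes of Nkx2-5, Tnnt2, Tnnc1, Myl4 and Actc1 was another member or stood in the muscle lists.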

How the data were processed

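The members and gene lists were chosen with earlier results of these data known. Poly(A) RNA of 4 libraries was sequenced after stranded TruSeq preparation, per the labels' protocols. CASAVA and TopHat2 version 2.0.11 with build mm10 are named, per the submitters' processing notes; no source used here names the quantifier or the use of strand. The authors deposited, per the file headers, 35656 transcript rows per library with FPKM, a lower and an upper FPKM bound and a coverage signal. Low-data rows (291 per library) and failed rows (4, in day 4 replicate 2) were kept.

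Rows were named by transcript ID from RefSeq GRCm38.p6 (30286 rows) and GENCODE M21 (164 and 3585 rows), 95.5% in all, and FPKM were summed per symbol. Depth was estimated by taking the deposited bounds as 2 Poisson standard deviations on each side. Genes whose mean over the libraries was 1 FPKM or more were tested on log2(FPKM + 1) in limma (3.58.1; R 4.3.3), two-sided, with a mean-variance trend, p-values adjusted by Benjamini-Hochberg at a threshold of 0.05, and no replicate block. Named genes are the members, the 4 list genes with the smallest p per list, fixed landmark genes, the 3 nearest profiles per member and neighbours within 100 kb; Srf, Mef2d, Mybpc3, Myom2, Zfp42 and a few listed or undetected markers were added after their values were seen. The limma fit was first run on simulated data, where its median estimates had to match the differences put in. That check set no condition on how many changed genes were called. The deposited FPKM of Hand1 at day 6 lies just above its own upper bound (179 and 318 FPKM), so the bounds are only a guide to counting error. Precision is poorer at day 4, where depth is lower.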

Additional observations from a re-analysis of the deposited data

How the results depend on the processing

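With all 4 libraries, the limma fit called 0 of the genes tested at the pseudocount of 1 FPKM, at 0.1 FPKM, without a filter, after centring, after the GC correction, with the highest row per symbol, with OK rows only and without the mean-variance trend. Leaving out 1 library gave 0 to 7837 calls: 7837 without day 4 replicate 1, 6081 without day 4 replicate 2 and 0 without either day 6 library; the cause was not tested. The replicate numbers are not tied to a culture or batch in the labels, and the deviations of same-numbered libraries had a correlation of -0.09 across genes, so the numbers were not taken as pairs. With a replicate block 67 genes were called, Hand2 among them (limma, adjusted p = 0.0414), and no other member.

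The median log2 difference of the members, 0.37, was 1.19 with a pseudocount of 0.1 FPKM, -0.26 after centring and 0.03 after the GC correction, and 0.27 to 0.88 over leaving out 1 library. The members higher without overlap numbered 3 after centring and 3 after the GC correction, in place of 6. The shares of all genes tested were then 20.3 and 27.5%. Those lower numbered 3 after centring and 2 after the GC correction, in place of 2, beside 26.4 and 27.6% of all genes tested. The sign changed for Nkx2-5 after centring (-0.62), without day 4 replicate 1 (-0.74) and without day 6 replicate 1 (-0.26), with a range of -0.74 to 0.76 over leaving out 1 library. For Tnnt2 it changed after centring (-0.42), after the GC correction (-0.29) and without day 4 replicate 2 (-0.89), with a range of -0.89 to 1.31 over leaving out 1 library; the cause was not tested. Hand1, Hand2, Tnnc1, Myl4 and Actc1 kept their direction under the 12 alternatives run. Values under about 1 FPKM rest on few fragments and limit what can be said of Mef2c, Isl1 and Myl7.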
